A study of Mus musculus with 8 samples.

Results

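A small group of nuclei in adult mouse hippocampus, 135 of 29425 that were sequenced, carries the deposited annotation excitatory neurons 19. Its members were chosen by that annotation alone. They are described here across genes and across the 4 mice, and are called the cluster. The name is that of a neuron, but the cluster was high in genes of fibroblasts: *Slc47a1*, a drug and toxin exporter, *Bnc2* and *Tbx15*, transcription factors of mesenchyme, and *Adamtsl3*, a secreted matrix protein. The cluster is therefore treated as fibroblast-like. Of its nuclei, 19 came from mutant replicate 1, 64 from mutant replicate 2, 33 from control replicate 1 and 19 from control replicate 2. Values for the 4 libraries are given in this order throughout.

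The study used mice in which *Wls*, which codes for the chaperone that Wnt ligands need for secretion, was deleted by the *Gfap-Cre* transgene, active in neural and glial progenitors of the cortex. Mutants were *Wlsfl/-;Gfap-Cre* and controls were *Wlsfl/+;Gfap-Cre*, so every animal carried *Gfap-Cre* and a conditional allele of *Wls*, and the 2 genotypes differed in the other allele, which is null in all cells of a mutant and wild type in a control. A cell in which *Gfap-Cre* was never active therefore keeps 1 functional allele in a mutant and 2 in a control. Each library was made from both hippocampi of 1 mouse, given as male and 12 weeks old, with 2 mice per genotype for snRNAseq and 2 for bulk RNAseq. Whether replicate numbers link animals is not stated.

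Fibroblasts of the brain lie in the meninges, along larger vessels and in the stroma of the choroid plexus. They make collagens and other matrix proteins, release retinoic acid, BMPs and Wnt modulators that act on the neighbouring cortex, and carry transporters for organic ions, anions and nutrients. The arachnoid layer contains barrier cells joined by E-cadherin and tight junctions, while the pia follows the brain surface and the walls of penetrating vessels.

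The cluster held 433719 UMIs in all (47546, 202196, 74590 and 109387 by library). The median nucleus had 2214, 2553, 2097 and 3922 UMIs, and the range over all of them was 1506 to 20246. Nuclei of control replicate 2 were thus the deepest, as were all nuclei of that library. No cell barcode of the cluster occurred in more than 1 library, although 87 of 29338 distinct barcodes did so elsewhere. Scrublet, which marks probable doublets, marked 0, 6, 2 and 3 nuclei of the cluster; it marked only 1 nucleus in the whole of mutant replicate 1 and is taken not to have worked there. Levels are in UPM, the UMIs of a gene per 1000000 UMIs of the summed nuclei. With 2 mice per genotype an exact permutation test of a single value cannot go below p = 0.33.

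Transcripts that mark excitatory neurons were mostly at or near the level of glia. *Slc17a7*, which codes for the vesicular glutamate transporter of forebrain neurons, was at 53.0 UPM in the cluster, against 209.7 to 322.7 UPM in 9 other types of excitatory neuron and 45.4 to 61.1 UPM in the 4 types of glia. The level in the cluster therefore lay within the glial range. *Neurod2*, a neuronal transcription factor, was at 25.4 UPM, against 40.8 to 145.0 UPM in the excitatory types and 16.1 to 24.9 UPM in glia. *Slc17a6*, the other glutamate transporter gene, had no UMI in the cluster, and the synaptic transcript *Snap25* was at 198.3 UPM, within the glial range of 111.2 to 297.5 UPM. Some neuronal transcripts were above glia but below neurons, such as *Syt1* at 398.9 UPM and *Rbfox3* at 108.4 UPM, against at least 1978 and 368.7 UPM in the excitatory types. *Nrgn*, at 106.1 UPM, lay inside the excitatory range of 68.4 to 367.1 UPM but below that of glia (112.2 to 175.7 UPM). *Fhl2* was the exception, at 66.9 UPM against 7.88 to 58.9 UPM in the excitatory types, and it was at 73.5 UPM in inhibtory neurons 14 (spelled as deposited), the other cluster with fibroblast genes. The median nucleus had 1.43 UMIs of 10 neuronal transcripts per 1000 UMIs, compared with 30.5 in CA1 cells. Only 7 nuclei exceeded 10 per 1000, and these held 67.8% of all such UMIs. They had a median of 8529 UMIs, 5 of the 7 were marked by Scrublet, and 5 came from mutant replicate 2.

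Each of the given markers was found in every library. *Slc47a1* was at 1178, 1152, 1931 and 1929 UPM in the 4 libraries, from 56, 233, 144 and 211 UMIs. Its next highest level in any of the 21 annotated types was 8.61 UPM, in inhibtory neurons 14, a ratio of 172. *Bnc2* was at 2776, 2161, 2440 and 1929 UPM. It was the most abundant of the 4 markers but the least particular, since inhibtory neurons 14 held 263.5 UPM. *Adamtsl3* was at 2524, 1345, 2158 and 1088 UPM, the next type being oligodendrocyte precursors with 67.5 UPM. *Tbx15* was at 883.4, 474.8, 469.2 and 658.2 UPM, against 50.5 UPM in inhibtory neurons 14. The ranges of the genotypes overlapped for *Bnc2*, *Adamtsl3* and *Tbx15* and not for *Slc47a1*. Over all 2201 genes tested in the cluster, both mutants were below both controls in 18.9% and above them in 17.4%. These shares are the background wherever a lack of overlap in the cluster is given below. Differences from other types describe nuclei that were grouped by such genes and carry no test.

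To compare nuclei at equal depth, each was thinned at random to 1500 UMIs, which left out no nucleus. *Slc47a1* then had a UMI in 85 of the 135 nuclei (63.0%), *Bnc2* in 111, *Adamtsl3* in 73 and *Tbx15* in 55. The background is given by cells that should lack the gene: *Slc47a1* had a UMI in 0.164% of oligodendrocytes and 0.238% of CA1 cells. Without thinning the shares for *Slc47a1* were 72.6%, 0.245% and 1.16%, at median depths of 2480, 2021 and 8720 UMIs. Detection in the cluster was thus far above these backgrounds at either depth. *Bnc2*, *Adamtsl3* and *Tbx15* had a UMI in 0.245%, 2.82% and 0.123% of oligodendrocytes at 1500 UMIs.

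**Figure D1:**
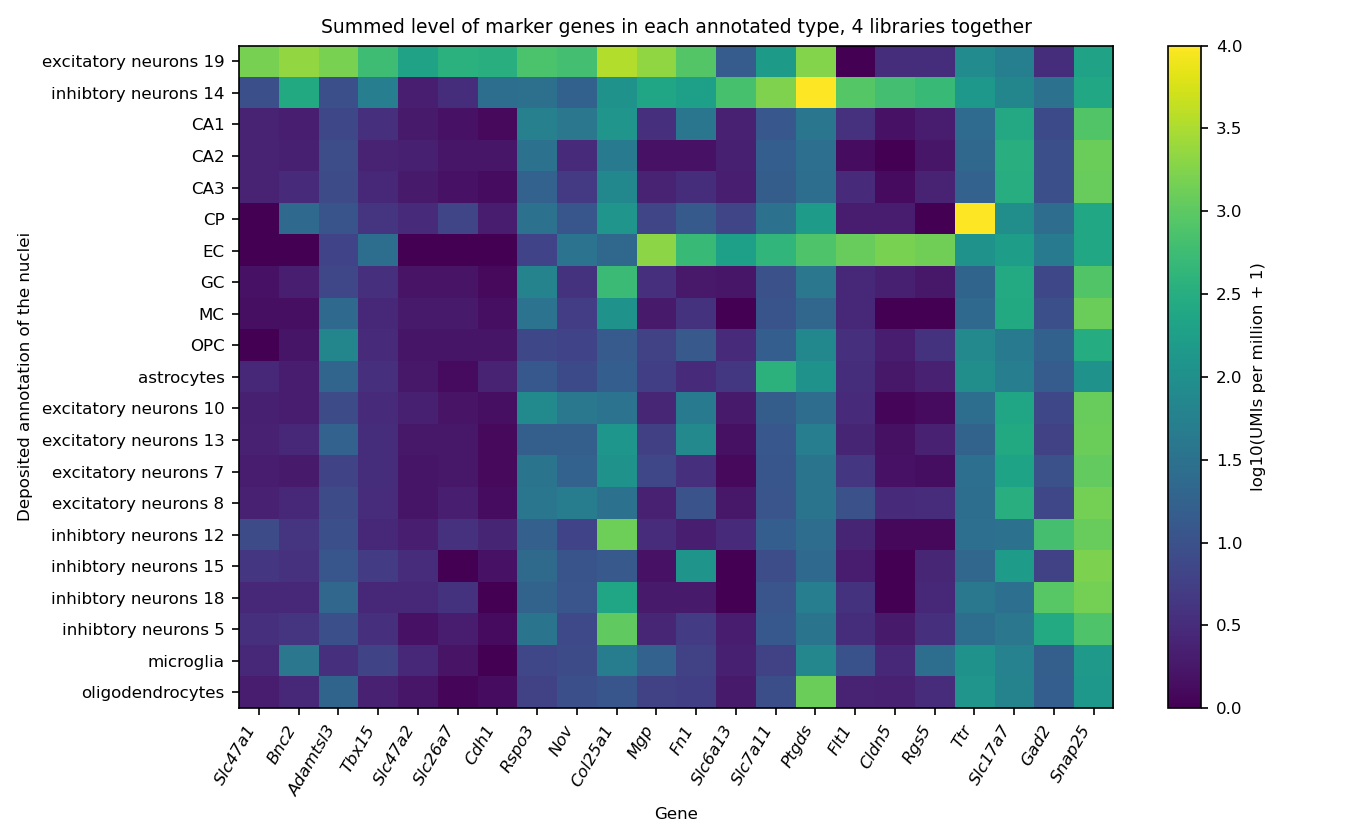
Levels of 22 genes (columns) in the summed nuclei of each of the 21 deposited annotations (rows), as log10(UPM + 1), with the cluster in the top row. *Slc47a1*, *Bnc2*, *Adamtsl3* and *Tbx15* were at 1485, 2218, 1549 and 565 UPM in the cluster, while endothelial (*Flt1*, *Cldn5*), pericyte (*Rgs5*) and neuronal genes (*Slc17a7*, *Gad2*, *Snap25*) were at or near the level of glia.

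Across the genome, 4440 genes reached 50 UPM in the cluster with a UMI in 3 or more libraries. Of these, 648 were higher in the cluster than in any other type, 127 by over 2-fold and 25 by over 10-fold. These 25 are called the leading genes below. For 9 of them the next highest type was inhibtory neurons 14. Taking leading genes from the control nuclei alone gave 17 of the same 25. Together the leading genes made up 10243, 6385, 9465 and 8374 UPM of the libraries' UMIs in the cluster and 202.1 UPM in inhibtory neurons 14.

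Several leading genes code for transport proteins. Among them were *Slc47a1* and *Slc47a2*, which code for the multidrug and toxin extrusion proteins that exchange organic cations for protons. *Slc47a2* was at 294.5, 158.3, 281.5 and 192.0 UPM, and at most 2.23 UPM elsewhere. *Slc26a7*, an anion exchanger, was at 294.5, 366.0, 429.0 and 338.2 UPM, against 5.89 UPM in the next type, choroid plexus. *Slc26a2*, which imports the sulphate needed for proteoglycans, was at 420.6, 247.3, 415.6 and 420.5 UPM. *Kcnk5*, a potassium channel, and *Car13*, a carbonic anhydrase, reached 214.4 and 196.0 UPM over all libraries, at 33.9 and 42.7 times the next type. Each of these genes was present in all 4 libraries, and the genotypes overlapped in all but *Slc47a1* and *Kcnk5*, which was at 147.2 and 173.1 UPM in the mutant and 241.3 and 301.7 UPM in the control.

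*Slc47a1* and *Slc47a2* are neighbours on the minus strand of chromosome 11 (GRCm38), at chr11:61343401-61378345 and chr11:61301631-61342860, with 540 bases between the end of the former and the start of the latter. At 1500 UMIs per nucleus, all 27 nuclei with a *Slc47a2* UMI also had one of *Slc47a1*, and 58 had *Slc47a1* alone. With all UMIs the numbers were 41 with both genes and 1 with *Slc47a2* alone. Reads from a transcript that runs past the end of *Slc47a1* would be counted for *Slc47a2*, and these cannot be told apart in the UMI counts. The 250 bases upstream of the *Slc47a2* start (RefSeq, GRCm38.p6) lie within this gap. They are shown with the same window of *Adamtsl3*, a marker that was in 66 of the 85 nuclei with *Slc47a1* at 1500 UMIs, so that promoters of genes expressed together can be read side by side. Capitals would mark the T-box motif AGGTGT, which factors such as *Tbx15* bind, or the forkhead motif TGTTTAC, searched on both strands.
Slc47a2, chr11:61342861-61343110, minus strand: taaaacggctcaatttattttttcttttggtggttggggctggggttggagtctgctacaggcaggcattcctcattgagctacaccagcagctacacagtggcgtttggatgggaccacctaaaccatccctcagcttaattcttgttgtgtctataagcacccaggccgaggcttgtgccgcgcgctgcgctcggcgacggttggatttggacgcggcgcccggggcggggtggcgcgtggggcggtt
Adamtsl3, chr7:82335444-82335693, plus strand: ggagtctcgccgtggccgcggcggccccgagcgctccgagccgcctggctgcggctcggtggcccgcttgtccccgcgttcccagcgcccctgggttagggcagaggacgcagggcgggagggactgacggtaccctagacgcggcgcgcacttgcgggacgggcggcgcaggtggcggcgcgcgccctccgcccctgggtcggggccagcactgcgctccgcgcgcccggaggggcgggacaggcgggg
Neither window held AGGTGT or TGTTTAC, and G and C made up 58.0% and 80.0% of their bases. Of the 25 leading genes, 11 had a promoter window, and 1 of these held AGGTGT (*Gm6260*) and 1 held TGTTTAC (*Tspan8*). Over all 32851 windows of this length the shares were 11.8% and 3.17%. The *Nov* and *Tnfrsf11b* genes, also on the list of 25, lie 467217 bases apart on chromosome 15, and *Agtr1b* and *Dnajc5b* 703610 bases apart on chromosome 3.

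Other leading genes were of several kinds. *Cdh1*, which codes for E-cadherin, was at 694.1, 217.6, 321.8 and 393.1 UPM and at 26.98 UPM in inhibtory neurons 14. *Prg4*, the lubricant proteoglycan of joint surfaces, was at 525.8, 262.1, 187.7 and 283.4 UPM. *Nov*, a secreted CCN matrix protein, was at 715.1, 366.0, 1046 and 850.2 UPM, while *Tnfrsf11b*, the decoy receptor osteoprotegerin, was at 84.1, 44.5, 120.7 and 128.0 UPM. *Nov* and *Tnfrsf11b* were lower in both mutants than in both controls, and *Cdh1* and *Prg4* overlapped. *Tnfrsf11b* rested on few UMIs in each library. Of 19 leading genes tested, 7 lay lower and 3 higher in both mutants, against 18.9% and 17.4% of all genes tested. The Wnt ligand *Wnt16* was on the list at a low level, 53.0 UPM from 23 UMIs. Of the remaining leading genes the highest was *Tspan11*, a tetraspanin, at 325.1 UPM and 48.3 times the next type, and the lowest was *Fbxw27* at 50.7 UPM. Among them were also *Thbs1* (thrombospondin, 83.0 UPM) and *Agtr1b*, an angiotensin receptor (80.7 UPM). Over the 21 types, genes whose log2(UPM + 1) followed that of *Slc47a1* most closely included *Slc47a2* (Pearson r = 0.925), *Prg4* (0.924), *Car13* (0.910) and *Cdh1* (0.906). These r describe 21 annotated types that share libraries, the cluster among them.

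Matrix genes were strongly expressed. Of 21 listed collagens, of fibrils, their surfaces and membranes, 13 reached 50 UPM and 7 were higher in the cluster than in any other type. *Col25a1*, a transmembrane collagen, was the highest, at 4417, 4080, 2896 and 2258 UPM, followed by *Col23a1* at 809.3, *Col8a1* at 260.5 and *Col1a2* at 230.6 UPM over all libraries. The classical fibroblast collagens *Col1a1* and *Col3a1* were lower, at 108.4 and 119.9 UPM. In inhibtory neurons 14 *Col1a1*, *Col3a1* and *Col1a2* were higher than in the cluster, at 196.9, 174.5 and 285.9 UPM. Of 34 matrix glycoproteins and proteoglycans, 16 reached 50 UPM. *Mgp*, the inhibitor of calcification, was at 1262, 885.3, 2601 and 4708 UPM, and *Fn1* (fibronectin) at 946.5, 529.2, 1367 and 1024 UPM. Both mutants lay above both controls for *Col25a1*, as for 17.4% of all genes tested, and below them for *Mgp* and *Fn1*, as for 18.9%. Of 19 basement membrane genes 10 reached 50 UPM, with *Lama2* the highest at 836.9 UPM. Of 29 enzymes and related proteins that process matrix, 14 did so, and after *Adamtsl3* the highest were *Adamtsl1* (606.4 UPM), *Adamts12* (521.1 UPM) and *Mmp16* (472.7 UPM).

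Of 35 mesenchymal transcription factors in the matrix, 20 reached 50 UPM and 14 were highest in the cluster. After *Bnc2* came *Foxp2* at 1725, 1637, 2534 and 1417 UPM and *Foxp1* at 1598, 1736, 1931 and 1079 UPM. Both are forkhead repressors, and neither is particular to fibroblasts in the brain. *Tbx15* was the fourth. The genotypes overlapped for all 4. *Igfbp5*, which binds insulin-like growth factors, led the growth factor list at 757.2, 746.8, 2199 and 1956 UPM, ahead of *Fgfr2* and *Tgfbr3* at 654.8 and 622.5 UPM. Both mutants were below both controls for *Igfbp5*. *Bmp4* was at 309.0 UPM, and *Bmp6* at 292.8 UPM.

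Of 57 Wnt pathway genes in the matrix 19 reached 50 UPM. The highest was *Rspo3*, a secreted agonist of Wnt signalling that acts through LGR receptors, at 652.0, 588.5, 992.1 and 859.3 UPM, with 78.9 UPM in the next type and both mutants below both controls. Then came the receptor *Ror1* at 546.4 UPM and the nuclear effectors *Tcf7l2* and *Tcf7l1* at 468.0 and 309.0 UPM. Among Wnt ligands *Wnt9a* (78.4 UPM), *Wnt16* (53.0 UPM) and *Wnt5a* (50.7 UPM) reached 50 UPM, as did *Wnt5b*. On the list of arachnoid barrier and junction genes, *Alcam* was at 1600 and *Cdh11* at 647.9 UPM. *Cldn11*, a tight junction protein of the arachnoid, was at 306.7 UPM.

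Markers of other cell types were low as a group. Of 12 endothelial genes, 2 reached 50 UPM (*Cdh5* at 129.1 and *Emcn* at 78.4 UPM). Only *Cdh5* of this list was highest in the cluster, with 125.1 UPM in inhibtory neurons 14. *Flt1*, *Ly6c1* and *Egfl7* had no UMI. No UMI among 433719 allows a level of up to 6.92 UPM, counting error only. Of 10 pericyte genes, 1 reached 50 UPM (*Pdgfrb* at 87.6 UPM), and *Rgs5* had 1 UMI. The summed level of the endothelial list was 105.2 to 348.6 UPM over the libraries, and that of the pericyte list 54.9 to 227.9 UPM. No gene of the smooth muscle, ependyma, microglia or dentate granule cell lists reached 50 UPM. The choroid plexus epithelium list summed to 105.2, 346.2, 107.3 and 91.4 UPM, with *Ttr* at 0, 128.6, 93.8 and 36.6 UPM, against 11493 UPM in the nuclei annotated as choroid plexus. The astrocyte list reached 2212 to 3204 UPM, most of it *Gpc5* (1210 UPM) and *Slc4a4* (636.4 UPM), while *Aqp4* and *Gfap* were at 16.1 and 6.92 UPM. Among the inhibitory neuron genes *Rbms3* reached 1058 UPM, and the defining *Gad1* and *Gad2* were at 23.1 and 2.31 UPM. The 7 oligodendrocyte genes summed to 198.3 UPM and the 7 of oligodendrocyte precursors to 309.0 UPM, against 23433 and 14408 UPM in those types. All 10 neuronal transcripts counted per nucleus above reached 50 UPM, and their sum was 2923, 6696, 1475 and 3849 UPM, highest in the library with most of the neuron-rich nuclei.

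The type most like the cluster was inhibtory neurons 14, a group of 519 nuclei (64, 250, 82 and 123 by library) with transcripts of meningeal and vascular cells. Over 9007 genes that reached 50 UPM in some type, log2(UPM + 1) had r = 0.81 with inhibtory neurons 14 and r = 0.65 with astrocytes, the next. As these values come from nuclei that were grouped by the same genes, the comparison of the 2 clusters is a description with no test. Of 5266 genes at 50 UPM in either cluster, 374 were over 2-fold higher in excitatory neurons 19 and 424 over 2-fold lower, on the scale of log2(UPM + 10).

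The 2 clusters differed in transporters and in vascular genes. Of 25 meningeal transporters at 50 UPM in either cluster, 9 were over 2-fold higher and 13 over 2-fold lower in the cluster. On the higher side, beside the SLC47 and SLC26 genes, *Slc4a10*, a sodium and bicarbonate transporter, was at 2518 against 56.3 UPM, and the neutral amino acid importer *Slc38a2* was at 3334 against 700.3 UPM. On the lower side, *Slc7a11*, the cystine and glutamate exchanger, was at 149.9 against 1704 UPM, *Slc6a20a*, a proline carrier, at 87.6 against 1474 UPM, and *Slc6a13*, a GABA carrier of the leptomeninges, at 13.8 against 690.5 UPM. The 2 clusters thus held different sets of carriers. *Ptgds*, prostaglandin D synthase of the leptomeninges, was at 2250, 1355, 563.1 and 3337 UPM in the cluster and at 11942 UPM in inhibtory neurons 14.

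Of the 15 collagens on the list that reached 50 UPM in either cluster, 7 were over 2-fold higher in excitatory neurons 19 and 1 over 2-fold lower. *Col25a1* was at 31.0 times its level in inhibtory neurons 14, while *Col1a1*, *Col3a1* and *Col1a2* were lower in the cluster, as given above. Of 16 basement membrane genes, in contrast, none was over 2-fold higher and 7 were over 2-fold lower. *Lama1*, the laminin chain of the pial basement membrane, was at 18.4 UPM against 412.7 UPM. Of 11 endothelial and 7 pericyte genes at 50 UPM in either cluster, 9 and 7 were over 2-fold lower. *Flt1* was at least 126-fold and *Ly6c1* at least 56.5-fold higher in inhibtory neurons 14, with the floor of 3 UMIs over the cluster as the lower value. *Cldn5* had 1 UMI in the cluster, against 627.4 UPM. *Lef1*, a transcription factor of active Wnt signalling, was at 4.61 UPM in the cluster and 187.7 UPM in inhibtory neurons 14, and *Wnt4* at 18.4 and 252.6 UPM.

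**Figure D2:**
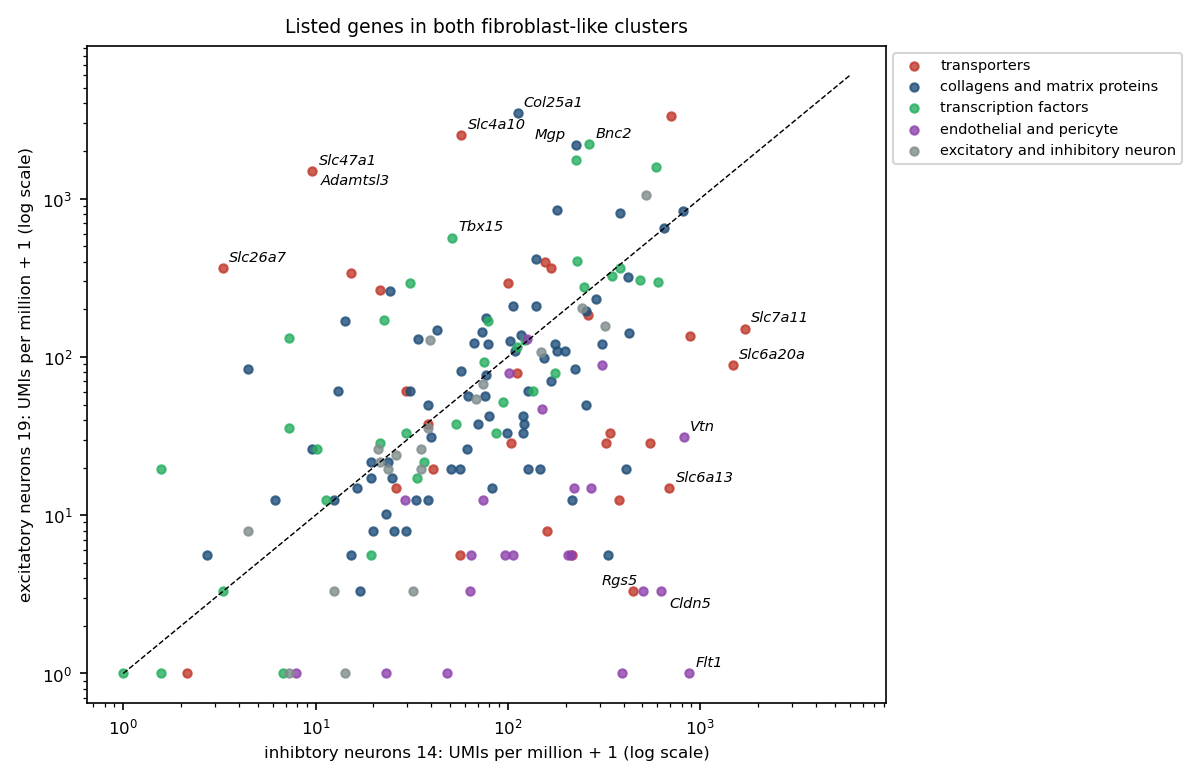
Summed level of listed genes in inhibtory neurons 14 (x axis) and in excitatory neurons 19 (y axis), as UPM + 1 on log scales, with the line of equal levels. *Slc47a1* and *Adamtsl3*, both at 8.61 UPM on the x axis, lie far above the line, and *Slc7a11*, *Slc6a13* and the endothelial genes lie below it.

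Within the cluster the markers were not evenly distributed. Of the 135 nuclei, 51 had a UMI of all 4 given markers, 36 of 3, 21 of 2, 19 of 1 and 8 of none. These numbers count all UMIs of a nucleus and are not at equal depth. Nuclei with 3 or 4 markers numbered 14, 37, 21 and 15 in the 4 libraries. Those with 0 or 1 numbered 2, 15, 9 and 1. Their median depth was 2101 UMIs, compared with 2658 UMIs for those with 3 or 4. Scrublet marked 1 nucleus with 0 or 1 marker and 8 nuclei with 3 or 4.

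The nuclei with 0 or 1 marker held other genes in place of the markers, several of them also present in inhibtory neurons 14. The genes in this account of the nuclei within the cluster were chosen after their values were seen, and the same nuclei give both the choice and the values. *Cemip*, which codes for a hyaluronan-degrading protein, was at 3396 UPM in nuclei with 0 or 1 marker and at 97.6 UPM in those with 3 or 4. *Lamc3*, a laminin chain, was at 590.0 and 6.73 UPM, and *Itga8*, an integrin, at 733.9 and 33.7 UPM. In inhibtory neurons 14 *Cemip* was at 645.8, *Lamc3* at 179.7 and *Itga8* at 44.8 UPM. In the other direction *Slc4a10* was at 71.9 UPM in nuclei with 0 or 1 marker and 3476 UPM in those with 3 or 4. *Rspo3* was at 43.2 and 965.7 UPM, *Nov* at 14.4 and 898.4 UPM, and *Slc26a7* at 14.4 and 504.7 UPM. Other carriers were higher in nuclei with 0 or 1 marker, among them *Slc7a11* at 402.9 and 84.1 UPM and *Slc6a20a* at 201.5 and 10.1 UPM. These 2 values rest on few UMIs. In nuclei with 0 or 1 marker *Slc7a11* had 28 UMIs (2, 23, 3 and 0 by library). *Slc6a20a* had 14 (7, 4, 0 and 3), largely from libraries where these nuclei had no *Cemip* (0, 205, 31 and 0 UMIs). *Slc4a10*, *Slc26a7* and *Rspo3* thus went with the markers and *Cemip* did not, while *Slc7a11* and *Slc6a20a* were too sparse to be placed with *Cemip*.

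At 1500 UMIs per nucleus, *Slc47a1* and *Cemip* were rarely found together. Of 135 nuclei, 81 had *Slc47a1* without *Cemip*, 22 *Cemip* without *Slc47a1*, 4 both and 28 neither. With all UMIs, 9 nuclei had both genes. As a comparison, 66 of the 85 nuclei with *Slc47a1* also had *Adamtsl3*, and 80 had *Slc4a10*. The 22 *Cemip* nuclei had no *Adamtsl3* UMI even without thinning, and *Bnc2* was at 428.3 UPM in them, against 2673 UPM in the 81 *Slc47a1* nuclei. *Tbx15* was at 204.0 and 775.4 UPM. Beside *Cemip* they held *Ebf1*, a transcription factor (in 20 of 22 at 1500 UMIs, and in 16 of the other 113 nuclei), *Adamts12* (18 and 33), *Itga8* (16 and 7), *Col26a1* (15 and 8), *Lamc3* (14 and 2) and *Dach1* (14 and 6). In inhibtory neurons 14 *Ebf1* was at 602.7, *Adamts12* at 618.8, *Itga8* at 44.8, *Col26a1* at 253.1, *Lamc3* at 179.7 and *Dach1* at 120.0 UPM. These genes were thus also found in the cluster most like this one. *Emcn*, which is on the endothelial list, was at 550.7 UPM in the *Cemip* nuclei and 18.2 UPM in the rest of the cluster. *Flt1* had no UMI in the cluster. *Dcn* (decorin) was at 1101 UPM in the *Cemip* nuclei, 138.9 UPM in the *Slc47a1* nuclei and 420.2 UPM in inhibtory neurons 14. *Mgp* was found in both, at 999.5 UPM in the *Cemip* nuclei and 2870 UPM in the *Slc47a1* nuclei.

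Another, smaller set had neither gene. Of the 28 nuclei without *Slc47a1* and *Cemip* at 1500 UMIs, 9 had *Dpp4*, a membrane dipeptidase, and 7 of these 9 also had *Cdh1*. None of the 85 nuclei with *Slc47a1* and none of the 26 with *Cemip* had a *Dpp4* UMI at this depth. With all UMIs, *Dpp4* shared 8 nuclei with *Slc47a1* and 1 with *Cemip*, so the separation was less strict than at equal depth. The 9 nuclei were rich in *Trpm3*, an ion channel (22691 UPM, against 2160 UPM in the rest of the cluster), *Ptgds* (9672 and 1291 UPM) and *Itgb4*, an integrin of epithelia (441.3 and 34.4 UPM). *Bnc2* was high in them, at 3347 UPM, and so was *Col25a1*, at 5517 UPM. *Slc4a10* had no UMI. *Slc6a20a* was at 698.8 UPM in these nuclei and 46.7 UPM in the rest of the cluster. *Cdh1* itself was in 26 of the 85 nuclei with *Slc47a1* and thus was not confined to the *Dpp4* set.

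The 3 sets were unequally spread over the libraries. *Cemip* without *Slc47a1* was found in 0, 17, 5 and 0 nuclei. At this depth the *Cemip* nuclei came from mutant replicate 2 and control replicate 1. With all UMIs the numbers were 0, 13, 5 and 1, so 1 such nucleus was in control replicate 2. Mutant replicate 2 and control replicate 1 also held all nuclei annotated as choroid plexus, 0, 184, 9 and 0. Whether the *Cemip* nuclei have any link with choroid plexus tissue was not tested. The *Dpp4* nuclei numbered 4, 4, 1 and 0, and *Slc47a1* without *Cemip* was found in 14, 33, 22 and 12 nuclei. *Slc47a1* nuclei were the largest set in each of the 4 libraries.

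**Figure D3:**
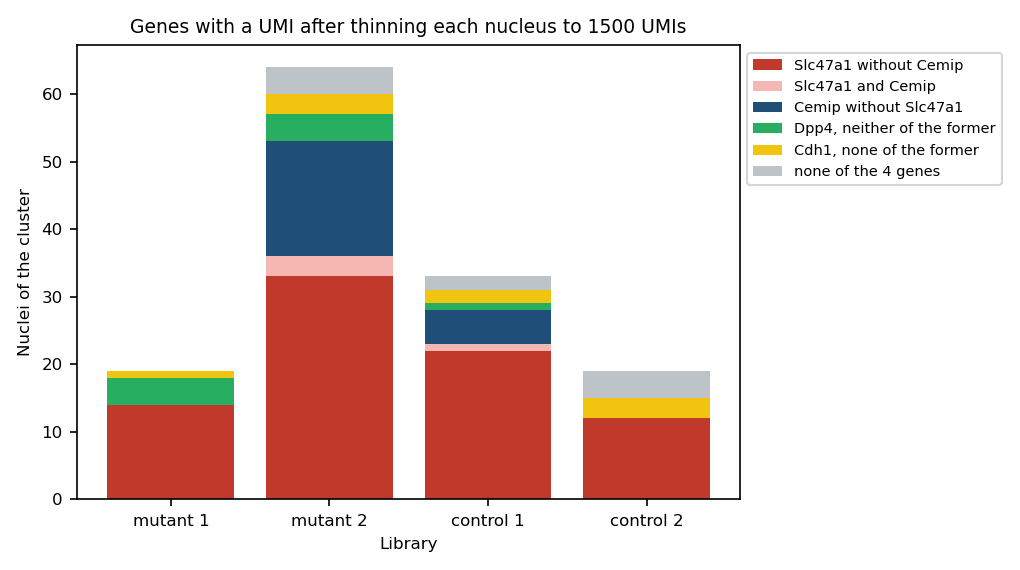
Nuclei of the cluster in each library (bars, number of nuclei) by the genes with a UMI after thinning to 1500 UMIs. *Slc47a1* without *Cemip* makes up 14, 33, 22 and 12 nuclei, and *Cemip* without *Slc47a1* appears in mutant replicate 2 (17) and control replicate 1 (5) only.

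The first comparison between genotypes is that of abundance. The cluster made up 0.358% of nuclei in mutant replicate 1 (exact 95% binomial interval 0.216 to 0.559%), 0.612% in mutant replicate 2 (0.472 to 0.781%), 0.510% in control replicate 1 (0.351 to 0.716%) and 0.264% in control replicate 2 (0.159 to 0.412%). The highest and lowest shares belonged to different genotypes, but the ranges of the genotypes overlapped. These intervals cover counting error only. By edgeR's quasi-likelihood test on the numbers of nuclei the log2 fold change in the mutant was 0.33 (SE 0.80), with FDR = 0.816 over the 21 types. No type passed FDR below 0.05 (0.0% of 21). At an unadjusted p below 0.05 only dentate granule cells, lower in the mutant, and excitatory neurons 10, higher, stood out by edgeR, with FDR = 0.0999 and 0.201. A share falls in any library with more of another cell type, and the libraries differed in dentate granule cells, without which 5214 and 9997 of the mutant nuclei but 4133 and 5185 of the control nuclei remained. Of these the cluster made up 0.364%, 0.640%, 0.798% and 0.366%, and the log2 fold change was -0.20 (FDR = 0.930 by the same test). No difference in abundance was detectable, and its direction turned with the nuclei that were counted. Among the nuclei of both fibroblast-like clusters together, excitatory neurons 19 made up 22.9%, 20.4%, 28.7% and 13.4%, and here too the genotypes overlapped.

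**Figure D4:**
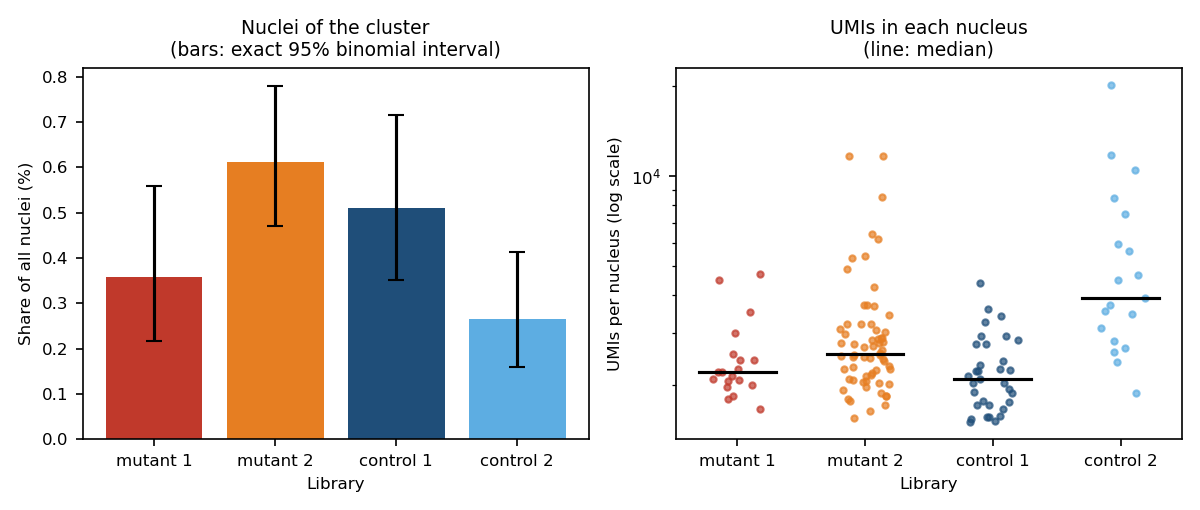
Left, share of all nuclei in the cluster for each library (%), with exact 95% binomial intervals. Right, UMIs of each nucleus on a log scale, with the median as a line at 2214, 2553, 2097 and 3922 UMIs.

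To compare transcripts between genotypes in the cluster, UMIs were summed per mouse and 2201 genes were tested. With edgeR's quasi-likelihood test (Benjamini-Hochberg FDR) no gene had a fold change above 2 with FDR below 0.05 (0.0% of genes tested), and DESeq2 called none either. At an unadjusted p below 0.05 with the same fold change, 55 genes (2.5%) were higher and 115 (5.22%) lower in the mutant. Of 19 leading genes that could be tested, 2 were higher and 1 lower by that measure. The median log2 fold change was -0.13 over these 19 and 0.05 over all genes. The 4 given markers did not pass. For *Slc47a1* the mutant libraries (1178 and 1152 UPM) lay below both controls (1931 and 1929 UPM), as for 18.9% of all genes tested, with a log2 fold change of -0.68 (SE 0.37, FDR = 0.768 by edgeR). Log2 fold changes of *Bnc2*, *Adamtsl3* and *Tbx15* were 0.22, 0.30 and 0.26, with FDR = 0.986 for each by edgeR, and their libraries overlapped between the genotypes. Leaving out a library moved the number of genes called from 0 to between 5 and 31 higher and between 3 and 22 lower, with the most higher (31) without control replicate 2 and the most lower (22) without control replicate 1. These calls treat the lone mouse of a genotype as varying like the other pair.

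*Wls* itself was detected in the cluster. Its level was 42.1 and 98.9 UPM in the mutant, from 2 and 20 UMIs, and 348.6 and 320.0 UPM in the control, from 26 and 35 UMIs. Both mutant libraries lay below both controls. The log2 fold change was -1.96 (SE 0.48), with FDR = 0.322 by edgeR over all genes, and did not pass. Its FDR by edgeR or DESeq2 ranged from 0.0695 to 1 over the alternatives, with log2 fold changes of -2.87 to -1.64. In inhibtory neurons 14 the level was 180.5 and 195.0 UPM in the mutant and 498.7 and 471.1 UPM in the control, also with no overlap. In the control, *Wls* in the cluster was above the 20.7 and 27.4 UPM of all nuclei of the same libraries. The same held in the mutant, where all nuclei had 6.96 and 11.7 UPM. *Wls* was found in each of the 3 sets of nuclei, at 181.3 UPM in *Slc47a1* nuclei, 163.2 UPM in *Cemip* nuclei and 147.1 UPM in *Dpp4* nuclei. These levels pool both genotypes, and the sets drew on them unequally. By library they held 14, 33, 22 and 12, then 0, 17, 5 and 0, then 4, 4, 1 and 0 nuclei. The *Cemip* and *Dpp4* sets had 49026 and 27191 UMIs of all genes, so few were of *Wls*. The 3 levels therefore do not compare the sets.

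The gene with the lowest p in the cluster was *Spp1*, the secreted phosphoprotein osteopontin. It and the genes beside it here are named after their values were seen. *Spp1* was at 21.0 and 19.8 UPM in the mutant and 187.7 and 310.8 UPM in the control, from 1, 4, 14 and 34 UMIs. The log2 fold change was -3.55 (SE 0.60), with FDR = 0.290 by edgeR. It passed with no filter on low counts (FDR = 0.00298), without doublets (FDR = 0.0384) and without mutant replicate 1 (FDR = 0.00563) or control replicate 1 (FDR = 9.98e-05), by the same test, and did not pass without mutant replicate 2 (FDR = 0.0970) or control replicate 2 (0.640), with RLE scaling (0.349), with the replicate block (0.112), without nuclei rich in neuronal transcripts (0.174) or by DESeq2 (1). In bulk hippocampus *Spp1* went the other way, with a log2 fold change of 1.26 (SE 0.37, FDR = 0.175 by edgeR). Over the bulk alternatives it ranged from 0.67 to 1.67, with FDR = 0.0405 by DESeq2. The cause of the opposite direction was not tested. *Mgp* was at 1262 and 885.3 UPM in the mutant and 2601 and 4708 UPM in the control, *Igfbp5* at 757.2 and 746.8 UPM and 2199 and 1956 UPM, and *Igfbp6*, of the same family, at 189.3 and 173.1 UPM and 469.2 and 831.9 UPM. FDR by edgeR was 0.322 for each of the 3. All 3 code for secreted proteins, and the genotypes did not overlap in any of them. Among matrix glycoproteins 3 of 10 tested, and among growth factor genes 3 of 13, were lower at an unadjusted p below 0.05 with a fold change above 2 and none was higher, against 5.22% lower and 2.5% higher over all genes. Among the lists of matrix, transporter, signalling and cell type genes, these 2 had the most lower genes, and each of the others had 1 at most. The counts include *Mgp* and *Igfbp5*, named above after their values were seen, and so are not separate evidence. Ribosomal protein genes, a set added later, had more, with 10 of 19 tested lower by the same measure.

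Abundant transcripts of the cytoplasm differed between the libraries as well. Of 77 ribosomal protein genes in the matrix 19 were tested, and 10 of these were lower in the mutant at an unadjusted p below 0.05 with a fold change above 2, with a median log2 fold change of -1.28, against 5.22% of all genes and a median of 0.05. They were summed after this had been seen. Their sum was 2545, 2779, 5617 and 7460 UPM in the cluster, and 1382, 1638, 2007 and 2226 UPM in all nuclei. Mitochondrial transcripts made up 0.0463%, 0.0752%, 0.117% and 0.393% of UMIs in the cluster. Both were thus lower in both mutants, as were *Spp1*, *Mgp*, *Igfbp5*, *Igfbp6* and *Wls*, and their part in those values was not tested.

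*Cemip* varied more between libraries of a genotype than between genotypes. Its level was 0, 1212, 509.5 and 9.14 UPM, with log2 fold changes between -7.17 without mutant replicate 2 and 6.04 without control replicate 1, both with FDR below 0.05 by edgeR (0.0133 and 2.74e-06). With all libraries it was 1.502 (SE 1.32, FDR = 0.922 by edgeR). The libraries with a high level were those that held the *Cemip* nuclei described above.

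Bulk RNAseq of whole hippocampus offers a comparison that does not depend on the grouping of nuclei. In whole tissue, fewer cells of a type and less RNA per cell cannot be told apart. Replicate 2 of either genotype had 230.1 (mutant) and 517.8 (control) CPM of *Xist*, the transcript of the inactive X chromosome, and 0.352 and 0.343 CPM of the Y-linked *Ddx3y*. Replicate 1 had 1.44 and 1.05 CPM of *Xist*. Replicate 2 of both genotypes thus goes against the male sex given for these mice, and is kept under its label. Of 20687 genes tested, 4 (0.0193%) were higher and 41 (0.198%) lower in the mutant at a fold change above 3 and FDR below 0.05 by edgeR's quasi-likelihood test (Benjamini-Hochberg FDR). These numbers rest on single libraries, since edgeR called 248 genes higher and 147 lower without mutant replicate 1, 75 and 79 without mutant replicate 2, and none without either control library.

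None of the leading genes was among them. Of the 25, 18 were tested, and their median log2 fold change was 0.43, against 0.01 over all genes tested. Of these 18, 5 did not overlap in the higher direction and 4 in the lower, against 25.8% and 25.4% of all genes, shares close to those of all genes. *Slc47a1* was barely detected, at 0.204, 0.805, 0.337 and 0.387 CPM (log2 fold change 0.50, SE 0.68, FDR = 0.754 by edgeR). *Bnc2*, *Adamtsl3* and *Tbx15* had log2 fold changes of 0.07, 0.07 and 0.06, and their libraries lay close together, *Bnc2* at 1.07, 1.12, 1.08 and 1.01 CPM.

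*Slc26a7* had the largest difference of the 18, at 0.714 and 2.38 CPM in the mutant and 0.142 and 0.179 CPM in the control (log2 fold change 3.26, SE 0.69, FDR = 0.105 by edgeR). In the other direction were *Card14* (log2 fold change -2.46) and *Wnt16* (-1.66), the latter at 0.629 and 0.302 CPM in the mutant and 1.52 and 1.39 CPM in the control. None of these 3 passed, and all are at low levels. All 10 genes of the choroid plexus epithelium list were higher in both mutants than in both controls, against 25.8% of all genes. None of the 10 was called at a fold change above 3 and FDR below 0.05 by edgeR. *Ttr* was at 635.0, 4963, 84.8 and 31.8 CPM, and mutant replicate 2, the highest for *Ttr*, was also the highest for *Slc26a7* and *Slc47a1*. The part of such tissue in these values was not tested.

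*Cemip* in bulk was lower in both mutants, at 14.02 and 17.5 CPM against 33.4 and 31.7 CPM (log2 fold change -1.04, SE 0.13, FDR = 0.0409 by edgeR), below the fold change of 3. Its FDR by edgeR was 0.0653 with the replicate block, and 0.244 and 0.293 without control replicate 1 and 2. It is no measure of the *Cemip* nuclei of the cluster alone, since dentate granule cells held 184.3 UPM of *Cemip*. *Wls* in bulk was at 3.67, 6.86, 13.2 and 13.03 CPM (log2 fold change -1.31, SE 0.30, FDR = 0.117 by edgeR). Its FDR was 0.000165 by DESeq2, and by edgeR 0.000224 with no filter on low counts, 0.00903 and 0.00223 without mutant replicate 1 and 2, and 0.395 and 0.554 without control replicate 1 and 2, with log2 fold changes of -1.84 to -0.94, all below the fold change of 3 except without mutant replicate 2. Of the genes that were called in bulk, 4 were on the matrix, transporter, Wnt or junction lists, all lower in the mutant, against 0.198% of all genes. They were *Npnt* (1 of 19 basement membrane genes tested), *Slc22a6* (1 of 29 transporters), *Lgr6* (1 of 56 Wnt pathway genes) and *Dsp* (1 of 24 junction genes), the last also on the list of dentate granule cell genes, of which 5 of 6 were called lower. In the cluster they were at 11.5, 6.92, 4.61 and 9.22 UPM, and each was highest in another type.

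**Figure D5:**
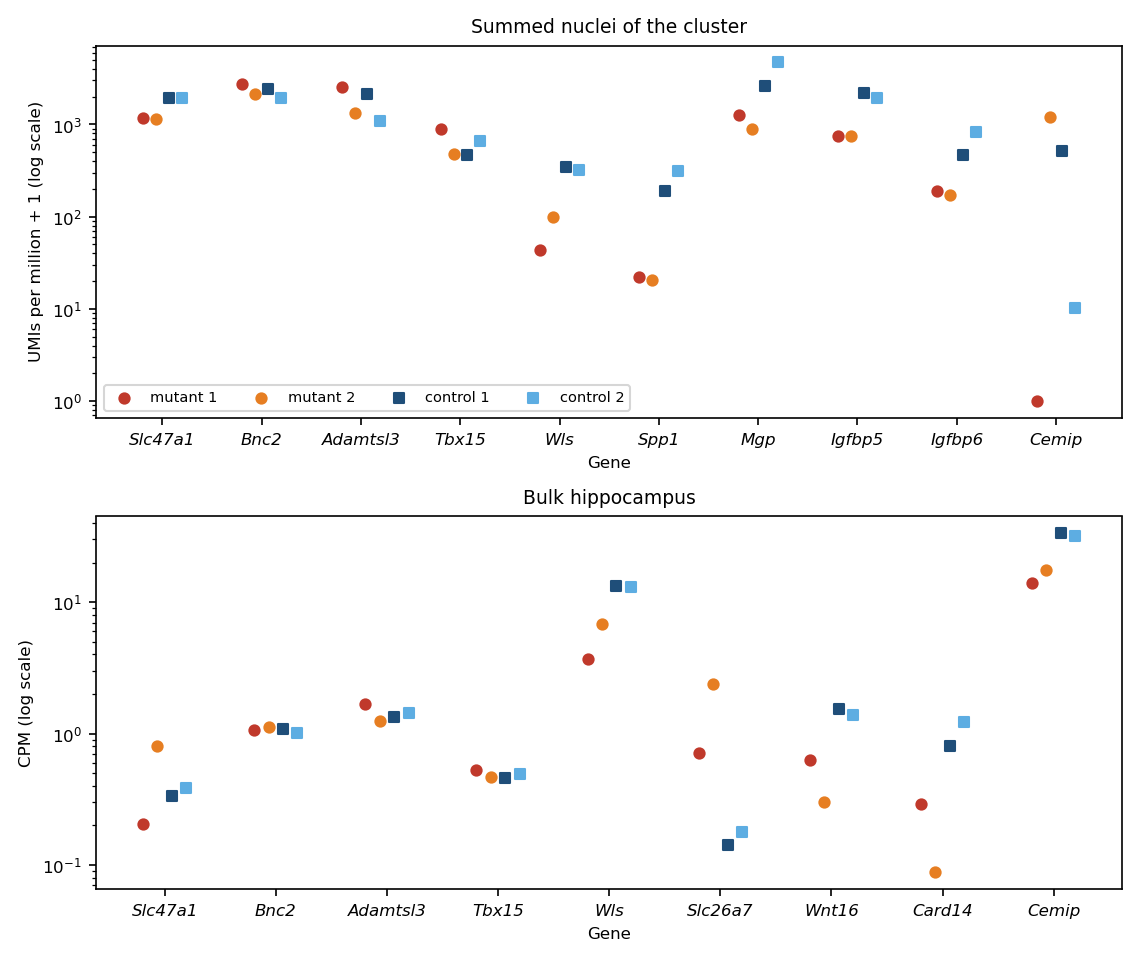
Levels of named genes in each library, mutant as circles and control as squares. Top, summed nuclei of the cluster in UPM + 1 on a log scale; bottom, bulk hippocampus in CPM on a log scale. *Wls*, *Spp1*, *Mgp*, *Igfbp5* and *Igfbp6* lie lower in both mutants in the cluster, *Cemip* there varies from 0 to 1212 UPM, and the 4 given markers overlap in bulk.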

How the data were processed

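Nuclei of the snRNAseq libraries were mapped by the authors against mm10 pre-mRNA (Cell Ranger 3.1.0 per the submitters' processing notes), merged, corrected between batches and clustered in Monocle 3. The deposited values are UMI counts per gene and nucleus, not normalized, with 1 annotation per nucleus. Bulk reads were quantified by the authors with RSEM 1.3.0 and Bowtie2 2.2.9 on mm10, and the deposited expected counts are estimates that divide ambiguous reads between genes. A deposited matrix of signal holds the same counts over 1 size factor per library. Gene positions came from gencode vM21 (GRCm38).

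The members, gene lists and tests were chosen with earlier results of these data known. UMIs were summed per mouse over the cluster, since nuclei are not replicates, and expected counts were rounded to whole numbers. Both were compared between genotypes with edgeR 4.0.16 (quasi-likelihood test, TMM, filterByExpr, Benjamini-Hochberg adjustment, R 4.3.3), at the study's thresholds of FC above 2 (nuclei) and 3 (bulk) and FDR below 0.05. Numbers of nuclei were tested likewise over 21 types, with all nuclei of a library as library size. Bulk CPM are scaled by TMM; UPM are not. Each SE was taken from the fold change and its F statistic. Alternatives were DESeq2 1.42.0, RLE scaling, no filter, the authors' signal with limma 3.58.1 on log2(signal + 1), Scrublet (scanpy 1.11.5), and others given under the results' dependence on processing. Scripts were tested on simulated data. EBSeq and the Monocle 3 regression of the study were not run. Named genes are the 4 given markers, *Wls*, the 25 leading genes (largest ratio to the next type at 50 UPM or more, a UMI in 3 or more libraries), the highest members of each list, list genes past a test, and the 5 genes most like *Slc47a1*; others are said to be chosen after their values were seen. Some genes that meet this rule are not reported here.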

Additional observations from a re-analysis of the deposited data

How the results depend on the processing

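No alternative brought the abundance of the cluster past FDR 0.05. Its log2 fold change of 0.33 turned to -0.20 without dentate granule cells in the total and to -0.33 with TMM factors over the types, and ranged from -0.11 to 0.88 with a library left out, being negative without mutant replicate 2 (-0.11) and without control replicate 2 (-0.07). The cause was not tested. In the cluster, 8 genes were called higher and 14 lower with no filter on low counts, and 4 and 1 without Scrublet doublets; DESeq2, RLE scaling, the replicate block and nuclei with few neuronal UMIs gave 0 and 0. With a library left out the numbers were 5 to 31 higher and 3 to 22 lower. In bulk, 4 higher and 41 lower became 73 and 66 with DESeq2, 201 and 112 with no filter, 2 and 24 with the replicate block, and 0 to 248 and 0 to 147 with a library left out.

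The median log2 fold change of the leading genes in bulk, 0.43, was 0.33 with the replicate block, 0.17 over 60 leading genes and 0.20 to 0.60 with a library left out. Single genes turned only when a library was left out. In the cluster *Adamtsl3* ranged from -0.14 (without mutant replicate 1; -0.04 without control replicate 2) to 0.80, *Tbx15* from -0.16 (without mutant replicate 1; -0.01 without control replicate 1) to 0.69 and *Cemip* from -7.17 (without mutant replicate 2) to 6.04. In bulk *Slc47a1* ranged from -0.83 (without mutant replicate 2) to 1.15, *Adamtsl3* from -0.16 (without mutant replicate 1) to 0.27 and *Tbx15* from -0.035 (without mutant replicate 1) to 0.14. The replicate numbers are shared by label only; deviations of same-numbered samples had r = 0.06 over 20687 genes in bulk and r = 0.04 over 2201 genes in the cluster, so the numbers are not taken to pair the mice. The number of nuclei, 19 in the smallest libraries, and the UMIs per nucleus limit what can be seen of single genes in the cluster.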
